A study of Mus musculus with 12 samples.

Results

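The genes described are the 78 protein genes of the mitochondrial ribosome that carry an Mrpl or Mrps symbol, 49 named for the large subunit (Mrpl) and 29 for the small subunit (Mrps), out of 23496 genes in the deposited table. Members were all symbols of the form Mrpl or Mrps followed by a number, so no measured value decided which genes of the family were included. The family itself was chosen with earlier results of these data known. Their levels were measured by RNA-seq in ESCs (pluripotent embryonic stem cells of the mouse, kept in culture), in 3 groups of 4 libraries. The Tfcp2l1 knockout (KO) was grown in 2i, a serum-free N2B27 medium with LIF at 1000 units/mL, the GSK3 inhibitor CHIR99021 at 3 µM and the MEK inhibitor PD0325901 at 1 µM. Wild-type (WT) ESCs were grown in the same 2i medium, and in the other medium WT ESCs received LIF at the same 1000 units/mL and 15% serum of fetal calves (FBS). Neither the labels nor the protocols used here name the parental line, how the knockout was made or whether it is a single clone. Tfcp2l1 is a transcription factor of the grainyhead family that supports ESC self-renewal.

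The mitochondrial ribosome makes the few proteins that mitochondrial DNA encodes, which are core subunits of the respiratory chain and of ATP synthase. Its rRNAs come from mitochondrial DNA, whereas every one of its proteins is encoded in the nucleus, made in the cytosol and imported. Some of these proteins descend from bacterial ribosomal proteins and others were added in mitochondria. The symbols do not always follow the structure: Mrps30 and Mrps18a proteins sit in the large subunit of the mammalian mitoribosome, and Mrps36 protein has been assigned to the ketoglutarate dehydrogenase complex instead.

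Levels are FPKM (mapped fragments per kilobase of a transcript, divided by the mapped total of the library), so they are scaled to transcript length and library size and can be compared between genes; the absolute read depth is unknown. FPKM summed to between 347772 and 358340 per library, and 11542 to 11869 genes per library reached 1 FPKM. Tfcp2l1 itself stood at 72 to 84.7 FPKM in KO in 2i, 112 to 143 FPKM in WT in 2i and 25.8 to 37.1 FPKM in WT in FBS. Since exons were not measured one by one, these values cannot tell whether part of the gene is missing. All 10 ESC markers were expressed, with summed levels of 3989 to 4224 FPKM in KO in 2i, 4228 to 5021 FPKM in WT in 2i and 3266 to 4262 FPKM in WT in FBS. The 20 fibroblast markers were also present, with none under 0.1 FPKM in any group, and summed to 506 to 819 FPKM in KO in 2i, 290 to 429 FPKM in WT in 2i and 165 to 231 FPKM in WT in FBS. Genes of chromosome 6 shifted together from library to library, by a median offset of -0.165 to 0.211 on the log2 scale, and WT in 2i replicate 3 lay apart from its group on the third principal component, which held 3.33% of the variance.

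Mitochondrial ribosomal protein genes were expressed at moderate levels in every group. All 78 reached at least 1 FPKM in at least 4 libraries and so entered the tests. The median member stood at 33.3 FPKM in KO in 2i, 33.9 FPKM in WT in 2i and 36 FPKM in WT in FBS, against 9.66, 9.7 and 9.33 FPKM for all 12329 genes tested. For the nuclear-encoded respiratory chain subunits the median gene stood at 99.2 FPKM in KO in 2i, 107 FPKM in WT in 2i and 88.2 FPKM in WT in FBS. Large and small subunit genes had similar levels: the median Mrpl gene stood at 33.8, 32.9 and 37.5 FPKM, and the median Mrps gene at 32.8, 34.8 and 35 FPKM, in KO in 2i, WT in 2i and WT in FBS.

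Although the proteins are assembled into one particle, their transcripts were not equally abundant. Group means of members ran from 5.5 to 99.4 FPKM in KO in 2i, from 6.57 to 115 FPKM in WT in 2i and from 5.39 to 116 FPKM in WT in FBS. At the low end of the large subunit was Mrpl41, a mitochondria-specific protein gene, with 5.3, 5.21, 5.89 and 5.6 FPKM in KO in 2i, 6.17, 6.57, 6.4 and 7.14 FPKM in WT in 2i, and 5.61, 5.45, 4.98 and 5.54 FPKM in WT in FBS (replicates 1 to 4 throughout). At its high end was Mrpl52, also mitochondria-specific, with 102, 97.6, 99.7 and 96.1 FPKM in KO in 2i, 118, 116, 111 and 114 FPKM in WT in 2i, and 102, 102, 96 and 97.7 FPKM in WT in FBS. In both genes the 4 WT libraries in 2i were the 4 highest, above both other groups. Of the small subunit genes, Mrps25 was the lowest and Mrps16 the highest over all libraries; Mrps25 held 6.45, 7.13, 6.77 and 5.84 FPKM in KO in 2i, 7.45, 7.77, 6.52 and 8.31 FPKM in WT in 2i and 9.7, 8.87, 7.32 and 8.97 FPKM in WT in FBS, with overlap between neighbouring groups. The span of Mrpl41 overlaps that of Dph7 and the span of Mrps25 that of Nr2c2, so the assignment of reads there is uncertain. Of the 78 members, 9 overlap another gene in this way.

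Members varied little between libraries of a group. The median SD of log2(FPKM + 1) within a group was 0.052 for members in KO in 2i, 0.079 in WT in 2i and 0.080 in WT in FBS, against 0.070, 0.106 and 0.108 for all genes tested. Summed over the 78 genes, the level was 2948 ± 39.5 FPKM in KO in 2i, 3156 ± 32.7 FPKM in WT in 2i and 3220 ± 88.9 FPKM in WT in FBS (SD, n = 4 each). The 4 KO sums, 2906 to 2994 FPKM, lay below the 4 sums of WT in 2i, 3113 to 3182 FPKM, whereas the sums in FBS, 3124 to 3334 FPKM, overlapped those of WT in 2i. The large subunit's sum was 1884 ± 27.3, 2010 ± 21 and 2088 ± 59.5 FPKM, and the small subunit's 1064 ± 14.8, 1146 ± 12.5 and 1132 ± 30.6 FPKM, in KO in 2i, WT in 2i and WT in FBS.

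**Figure D1:**
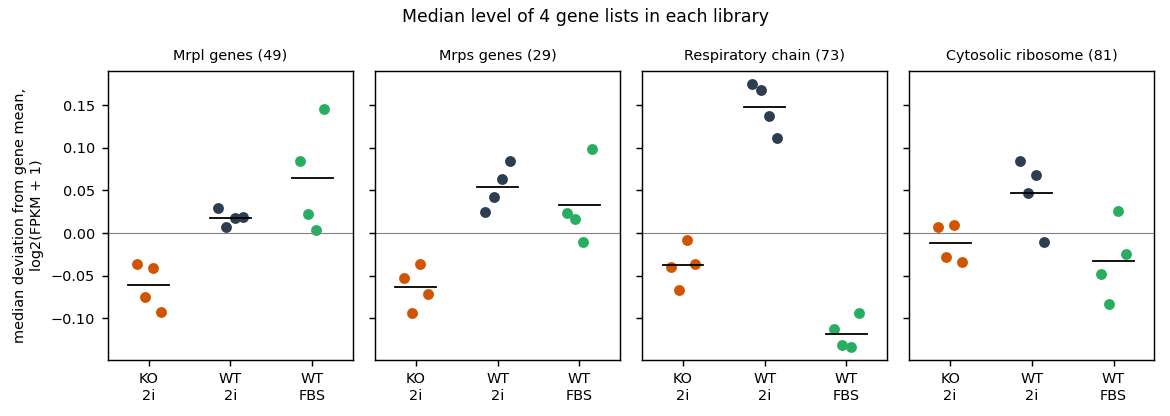
Median deviation of each gene list from its genes' means over the 12 libraries, on the log2(FPKM + 1) scale (y axis), in KO in 2i, WT in 2i and WT in FBS (x axis); each point is a library and the line is the mean of 4. For the Mrpl and the Mrps genes every KO point lies below 0, from -0.094 to -0.036, and every WT point in 2i above it, from 0.007 to 0.085; for the respiratory chain the FBS libraries are the lowest, which is not the case for either subunit.

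KO was compared with WT, both in 2i, because the series asks which transcripts depend on Tfcp2l1 there. In KO, 23 of the 78 members fell and 5 rose, by small amounts, and 50 did not pass the test. That is 29.5% lower and 6.41% higher, 35.9% in all, beside a background of 21.4% lower, 24% higher and 45.3% in all among the 12329 genes tested with limma at an adjusted p under 0.05. The median log2 change of members was -0.08, with 59 of 78 values below 0, against 0.01 for all genes. Changes ranged from -0.52 to 0.24; 0 of the 78 members changed by 1.5-fold or more, whereas 1298 of all genes did. The KO libraries all lay below the WT libraries for 24 members and all above them for 6. Over all genes 20.4% lay below and 23.7% above, 44.1% in all.

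Genes of both subunits fell in KO. Of the 49 Mrpl genes 14 fell and 4 rose, with a median log2 change of -0.08; of the 29 Mrps genes 9 fell and 1 rose, with the same median of -0.08. Placing Mrps30 and Mrps18a with the large subunit and setting Mrps36 aside, as in the mammalian structure, gave 14 lower and 4 higher of 51 large subunit genes and 8 lower and 1 higher of 26 small subunit genes, with medians of -0.07 and -0.09. Genes for proteins with a bacterial homolog, 12 lower and 2 higher of 46, and for mitochondria-specific proteins, 10 lower and 3 higher of 31, had medians of -0.08 and -0.09. No test of one of these classes against another was made.

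**Figure D2:**
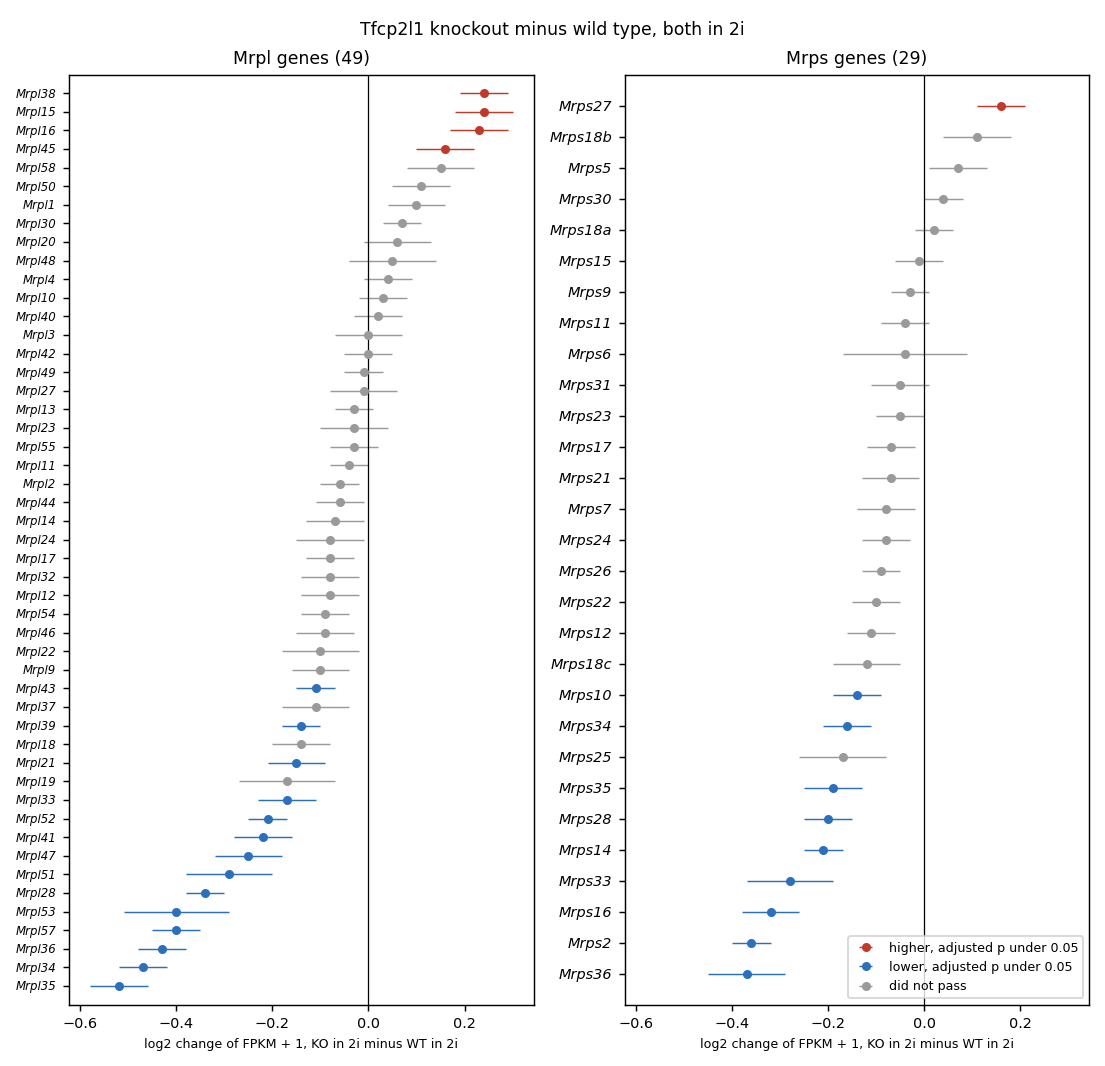
Log2 change of FPKM + 1, KO minus WT, both in 2i (x axis), of each of the 49 Mrpl genes (left) and 29 Mrps genes (right), ordered by change; points are limma estimates from 4 libraries a group, bars are standard errors, and colours mark genes called higher, lower or neither. Values run from -0.52 for Mrpl35 to 0.24 for Mrpl38 and Mrpl15, and most points lie left of 0 in both panels.

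Promoters are shown for Mrpl35, Mrpl34 and Mrpl36, the largest falls in KO, and for Mrps2 and Mrps27, to compare letters next to the start site. Mrps2 and Mrps27 were among the members that differed most between the media, and Mrps27 rose in KO while the others fell. Other members with large changes were left out, so these promoters are a selection. They come from RefSeq (GRCm38.p6, 5′ to 3′ on the gene's strand, 250 bases before to 50 bases after the start), with matches in capitals to an ETS core (CCGGAAG), an NRF1 core (GCATGCG) or a YY1 core (ATGGCGG), on either strand. The regions are chr6:71823735-71824034 (minus strand) for Mrpl35, chr8:71464676-71464975 (plus) for Mrpl34, chr13:73330759-73331058 (plus) for Mrpl36, chr2:28467816-28468115 (plus) for Mrps2 and chr13:99344536-99344835 (plus) for Mrps27.
Mrpl35: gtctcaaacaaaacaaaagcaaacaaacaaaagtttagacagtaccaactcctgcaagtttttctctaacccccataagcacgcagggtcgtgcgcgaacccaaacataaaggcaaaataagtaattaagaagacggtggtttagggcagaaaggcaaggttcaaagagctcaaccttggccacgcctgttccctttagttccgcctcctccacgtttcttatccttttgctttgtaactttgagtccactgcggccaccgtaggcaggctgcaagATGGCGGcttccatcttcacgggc
Mrpl34: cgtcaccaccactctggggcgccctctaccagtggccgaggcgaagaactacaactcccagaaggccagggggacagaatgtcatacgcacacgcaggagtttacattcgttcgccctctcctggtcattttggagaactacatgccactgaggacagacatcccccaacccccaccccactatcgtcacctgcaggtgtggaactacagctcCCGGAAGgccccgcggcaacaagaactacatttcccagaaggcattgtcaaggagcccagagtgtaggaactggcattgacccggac
Mrpl36: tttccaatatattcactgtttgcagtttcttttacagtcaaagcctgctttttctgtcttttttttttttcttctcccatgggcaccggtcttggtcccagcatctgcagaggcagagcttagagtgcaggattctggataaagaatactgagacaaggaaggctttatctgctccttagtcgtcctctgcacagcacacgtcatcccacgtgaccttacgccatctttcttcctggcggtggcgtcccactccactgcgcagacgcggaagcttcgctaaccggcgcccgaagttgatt
Mrps2: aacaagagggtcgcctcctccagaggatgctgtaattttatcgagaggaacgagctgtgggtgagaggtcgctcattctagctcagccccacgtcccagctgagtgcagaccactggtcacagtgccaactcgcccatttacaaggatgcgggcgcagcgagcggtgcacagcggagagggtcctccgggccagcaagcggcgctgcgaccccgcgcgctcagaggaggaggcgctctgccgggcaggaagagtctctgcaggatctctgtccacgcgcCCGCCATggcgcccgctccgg
Mrps27: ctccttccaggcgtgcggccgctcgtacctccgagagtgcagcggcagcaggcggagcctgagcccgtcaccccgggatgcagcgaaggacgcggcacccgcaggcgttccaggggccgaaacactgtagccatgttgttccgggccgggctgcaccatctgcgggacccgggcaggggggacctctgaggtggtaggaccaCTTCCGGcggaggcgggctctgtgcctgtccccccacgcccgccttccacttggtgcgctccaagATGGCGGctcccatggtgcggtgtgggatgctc

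In these windows Mrpl34 had an ETS core and Mrpl35 a YY1 core, Mrps2 had a YY1 core on the opposite strand, and Mrps27, which rose in KO, had both an ETS and a YY1 core. Mrpl36 had none of the 3 and an E-box (CACGTG) instead. RefSeq promoters were matched for 69 members, 75 windows in all. Of these, 34.7% held the ETS core, against 17.4% of 12513 promoters of tested genes and 8.86% of all 32851 promoters. The YY1 core was in 17.3% of member windows, against 8.02% and 4.05%, and the NRF1 core in 10.7%, against 6.42% and 3.58%. An E-box was in 9.33%, against 10.2% and 7.15%. The motif of the CP2 family, to which Tfcp2l1 belongs, was in 56% of member windows, against 69% and 54.7%. Of the windows printed above, Mrpl34 held 2 matches to it, Mrpl35 and Mrps27 1 each, and Mrpl36 and Mrps2 0. These matches are not in capitals. Median GC content was 58.7% for members, 61% for tested genes and 52.7% for all promoters. The ETS core was in 47.6% of 21 windows of members that fell in KO, 33.3% of 3 windows of members that rose and 29.4% of 51 windows of members that did not pass. For members that fell and members that did not pass, the YY1 core was in 14.3% and 17.6% and the NRF1 core in 9.52% and 11.8%. The E-box was in 4.76% and 11.8%, and the CP2 family motif in 57.1% and 54.9%. These shares were not tested, and a match is a description of letters and not a binding site.

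Mrpl35, Mrpl34 and Mrpl36, the members with the largest falls, are large subunit genes with bacterial homologs. Mrpl35 (NM_025430; chromosome 6, 71762991 to 71773778, on mm9 as for all genes here) had 9.04, 10.2, 10.4 and 9.92 FPKM in KO in 2i, against 14.1, 14.6, 14.5 and 15.3 FPKM in WT in 2i. The KO libraries were all low and did not overlap WT (log2 change -0.52, SE 0.06, limma adjusted p = 3.34e-05). Mrpl34 (NM_053162; chromosome 8, 73988825 to 73989652), the gene whose promoter above holds an ETS core, stood at 43.3, 44.4, 47.8 and 47.8 FPKM in KO in 2i, against 64.5, 67, 61.2 and 62.5 FPKM in WT in 2i, 71.9% of the WT mean, again with no overlap (log2 change -0.47, SE 0.05, limma adjusted p = 1.1e-05). Mrpl36 (NM_053163; chromosome 13, 73468457 to 73469626), whose bacterial homolog is among the smallest proteins of that ribosome, stood at 32.9, 32.6, 34.2 and 35.5 FPKM in KO in 2i, against 47.8, 44.2, 42.9 and 48.8 FPKM in WT in 2i. Its groups were likewise apart (log2 change -0.43, SE 0.05, limma adjusted p = 3.34e-05). Mrpl57, a mitochondria-specific gene (NM_026401; chromosome 14, 58445076 to 58447582), held 8.89, 8.9, 9.25 and 9.21 FPKM in KO in 2i and 12.9, 12.8, 11.2 and 12.2 FPKM in WT in 2i (log2 change -0.40, SE 0.05, limma adjusted p = 0.000118), also without overlap.

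Among small subunit genes, Mrps2 and Mrps16, both with bacterial homologs, fell. Mrps2 (2 transcript entries; chromosome 2, 28323586 to 28326697) held 40.5, 40.9, 42.7 and 42.7 FPKM in KO in 2i, against 53, 53.5, 54.7 and 54.7 FPKM in WT in 2i. The spread within each group was far smaller than the gap between them (log2 change -0.36, SE 0.04, limma adjusted p = 3.17e-05). Mrps16 (NM_025440; chromosome 14, 21210453 to 21212777), the Mrps gene with the highest mean over all 12 libraries, held 85, 84.1, 83.8 and 84.6 FPKM in KO in 2i, against 112, 116, 93.2 and 102 FPKM in WT in 2i. The KO libraries were nearly equal, the WT libraries varied more, and the groups did not overlap (log2 change -0.32, SE 0.06, limma adjusted p = 0.000789). Mrps36 (2 transcript entries) averaged 9.58 ± 0.898 FPKM in KO in 2i and 12.6 ± 1.28 FPKM in WT in 2i (SD, n = 4 each; log2 change -0.37, limma adjusted p = 0.00303), and did not pass when its higher entry alone was used. RefSeq lists pseudogene copies of this gene, so its reads are uncertain. The 2 genes at the extremes of the large subunit also fell, Mrpl52 by 0.21 and Mrpl41 by 0.22 on the log2 scale (limma adjusted p = 0.000568 and 0.00961). The other members that fell were Mrpl21, Mrpl28, Mrpl33, Mrpl39, Mrpl43, Mrpl47, Mrpl51 and Mrpl53 of the large subunit and Mrps10, Mrps14, Mrps28, Mrps33, Mrps34 and Mrps35 of the small one, with log2 changes from -0.40 to -0.11.

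A few members rose. Mrpl38 (NM_024177; chromosome 11, 115993131 to 116000182), a mitochondria-specific protein of the central protuberance of the large subunit, stood at 43.9, 41.9, 41.5 and 42.6 FPKM in KO in 2i, against 36.4, 34.6, 38.6 and 33.5 FPKM in WT in 2i. All KO libraries were above all WT libraries (log2 change 0.24, SE 0.05, limma adjusted p = 0.00246). Mrpl15 held 36.7, 35.1, 35.8 and 34.6 FPKM in KO in 2i and 29.1, 28.3, 31.9 and 30.2 FPKM in WT in 2i (log2 change 0.24, SE 0.06, limma adjusted p = 0.00435). Mrpl16, whose bacterial homolog lies near the peptidyl transferase centre, held 30.1, 27.4, 28.6 and 28.3 FPKM in KO in 2i and 23.2, 22.7, 24.8 and 26.1 FPKM in WT in 2i (log2 change 0.23, SE 0.06, limma adjusted p = 0.00455). Neither of these overlapped between the groups. Mrpl45, whose protein lies at the exit tunnel and ties the ribosome to the inner membrane, and Mrps27, a pentatricopeptide repeat protein of the small subunit whose gene overlaps 6430562O15Rik, each changed by 0.16 (limma adjusted p = 0.035 and 0.0173).

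Abundant members that did not pass include Mrpl42, with 72.9, 80.3, 82.7 and 81.2 FPKM in KO in 2i and 83.2, 83.4, 76.7 and 73.6 FPKM in WT in 2i (log2 change 0.00, SE 0.05, limma adjusted p = 0.987), and Mrps21, with 52.3, 51.7, 48.9 and 57.2 FPKM in KO in 2i and 53.1, 61.7, 53 and 52.7 FPKM in WT in 2i (log2 change -0.07, SE 0.06, limma adjusted p = 0.377). In both genes the groups overlapped. Mrpl12, the homolog of the bacterial stalk protein that recruits translation factors, held 82.2, 82.7, 79 and 77.9 FPKM in KO in 2i and 88.6, 87.7, 79.5 and 83.7 FPKM in WT in 2i (log2 change -0.08, limma adjusted p = 0.298). Mrps12, the homolog of a protein of the decoding centre, averaged 59.7 ± 1.4 FPKM in KO in 2i and 64.7 ± 3.87 FPKM in WT in 2i (SD, n = 4 each; log2 change -0.11, limma adjusted p = 0.0617); it lay near the threshold and passed under some alternative settings. Mrps30 had all 4 KO libraries, 46.5 to 47.4 FPKM, above all 4 WT libraries in 2i, 44.2 to 46.1 FPKM, by a log2 difference of 0.04 (limma adjusted p = 0.427).

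Chromosome 6 carries 7 members: Mrpl19, Mrpl35, Mrpl51, Mrpl53, Mrps25, Mrps33 and Mrps35. All 7 had a negative log2 change in KO and 5 passed, with a median of -0.28, while the 579 tested genes of that chromosome had a median of -0.15, 195 of them lower and 75 higher. When each library's chromosome 6 offset was subtracted from the genes there, Mrpl35 (log2 change -0.38) and Mrpl53 (-0.26) still passed. Mrpl51 (-0.15), Mrps33 (-0.14) and Mrps35 (-0.05) did not. The offset was the median deviation of the chromosome's tested genes from their means over all libraries. It ran from -0.085 to 0.021 in KO in 2i and from -0.11 to 0.211 in WT in 2i. Subtracting it therefore also removes any difference between the groups that these genes share. That fit cannot separate such a difference from shifts of single libraries. Of the 71 members on other chromosomes, 18 fell (25.4%) and 5 rose (7.04%), with a median of -0.07. Among all genes tested 21.4% fell and 24% rose. Mrpl53 and Mrps33 passed the test although their KO and WT libraries in 2i overlapped.

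The fibroblast markers moved with the knockout as well, 19 of 20 of them higher in KO than in WT in 2i, with the summed levels given above. In bulk libraries fewer cells of a type and less RNA per cell cannot be told apart. With the mean log2 level of those markers as a covariate, 7 members were called lower in KO (Mrpl28, Mrpl34, Mrpl35, Mrpl36, Mrpl41, Mrpl57 and Mrps2) and 1 higher (Mrpl38). In that fit 8.58% of all genes were lower and 6.07% higher in KO, the median SE of a member's change was 0.103, against 0.055 without the covariate, and the members' median log2 change was -0.07. That mean level was 3.81 to 4.47 in KO in 2i and 3.13 to 3.64 in WT in 2i, without overlap. Marker level and group therefore cannot be separated in this fit. Beyond this, the fibroblast markers' part in the result was not tested. Of the ESC markers 5 fell and 1 rose in KO. Trophoblast markers, 4 of 5 tested higher and 1 lower in KO, summed to 47.5 to 53 FPKM in KO in 2i and 28.9 to 35.6 FPKM in WT in 2i, with Elf5 under 0.1 FPKM in both. Neural markers, both tested ones higher, summed to 24.8 to 31.7 FPKM in KO in 2i and 9.46 to 24.9 FPKM in WT in 2i. Tfap2c made up most of the trophoblast sum, with means of 41.4 FPKM in KO in 2i and 26.8 FPKM in WT in 2i. Tubb3 made up most of the neural sum, with means of 22.8 and 12.6 FPKM in the same groups. Primitive endoderm markers, 2 of 4 tested higher and 1 lower, summed to 9.04 to 11 FPKM in KO in 2i and 8.9 to 13.9 FPKM in WT in 2i. These sums mix opposite changes. Lama1 fell, with means of 2.28 FPKM in KO in 2i and 6.04 FPKM in WT in 2i. Dab2 (means 2.33 and 1.47 FPKM) and Gata4 (2.51 and 1.89 FPKM) rose. The part of the trophoblast, neural and primitive endoderm markers in the result was not tested. Without WT in 2i replicate 3, 25 members fell and 7 rose in KO, beside 23.2% and 24.9% of all genes.

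**Figure D3:**
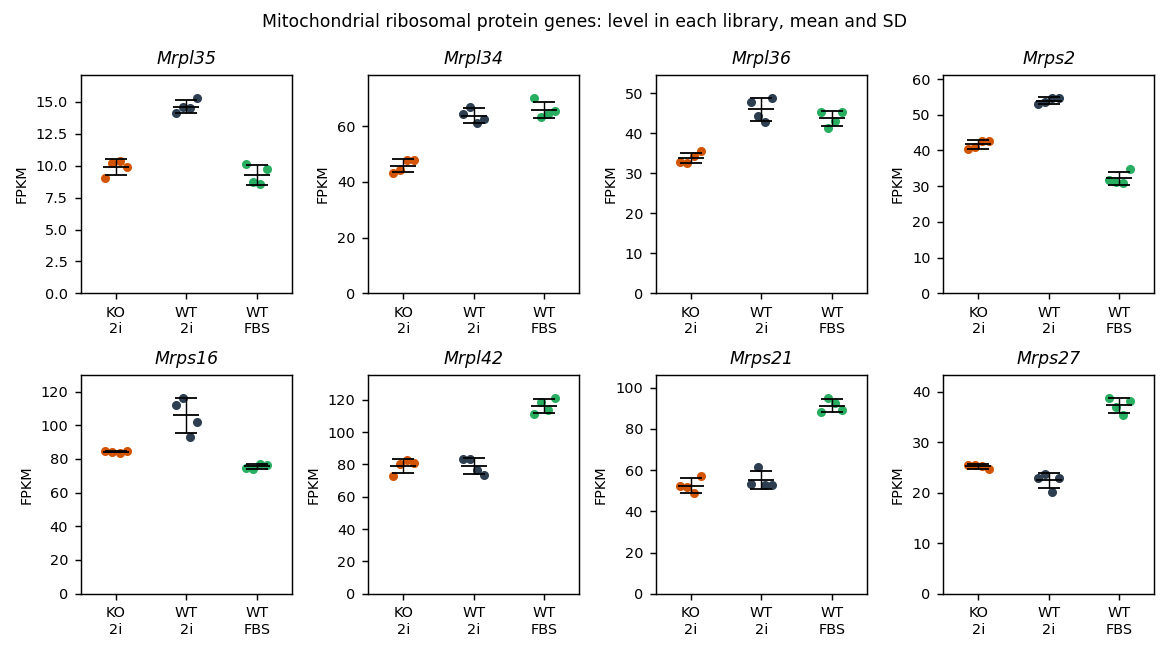
Level in FPKM (y axis, from 0) of 8 members in each library of KO in 2i, WT in 2i and WT in FBS (x axis); points are libraries, the horizontal mark and bar give the mean and SD of 4. Mrpl34 and Mrpl36 are low in KO alone, Mrpl35, Mrps2 and Mrps16 are highest in WT in 2i, and Mrpl42, Mrps21 and Mrps27 are highest in WT in FBS.

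The second comparison set WT in 2i against WT in FBS, the series' comparison of the 2 media. It uses the same 4 libraries of WT in 2i as the first, so the 2 comparisons are not independent, and each one's values are given side by side only. In 2i, 21 members were higher and 23 lower than in FBS, and 34 did not pass. That is 26.9% higher and 29.5% lower, 56.4% in all, against a background of 37.1% higher, 35.3% lower and 72.4% in all. The median log2 difference, 2i minus FBS, was -0.01 for members and 0.01 for all genes, with a range of -0.72 to 0.73 for members. By at least 1.5-fold 5 members differed, Mrps2, Mrps21, Mrps27, Mrpl35 and Mrpl48, and 0 by 2-fold, against 3689 and 1569 of all genes. The libraries of WT in 2i all lay above those in FBS for 18 members and all below for 19. Over all genes 32% lay above and 30.5% below, 62.5% in all.

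Calls in both directions were found in both subunits. Of the Mrpl genes 10 were higher and 16 lower in 2i, with a median of -0.01, and of the Mrps genes 11 were higher and 7 lower, with a median of -0.02. By structure the large subunit had 10 higher and 17 lower of 51, with a median of -0.04, and the small subunit 10 higher and 6 lower of 26, with a median of 0.00. Among the 16 small subunit genes with a bacterial homolog, 9 were higher and 2 lower (median 0.11), while of the 10 mitochondria-specific small subunit genes 1 was higher and 4 lower (median -0.07). In the large subunit the same classes had 5 higher and 9 lower of 30 (median -0.02) and 5 higher and 8 lower of 21 (median -0.04). Over all genes 37.1% were higher and 35.3% lower. These small classes were not tested against each other. The difference between the subunits was not tested, and their medians were close.

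**Figure D4:**
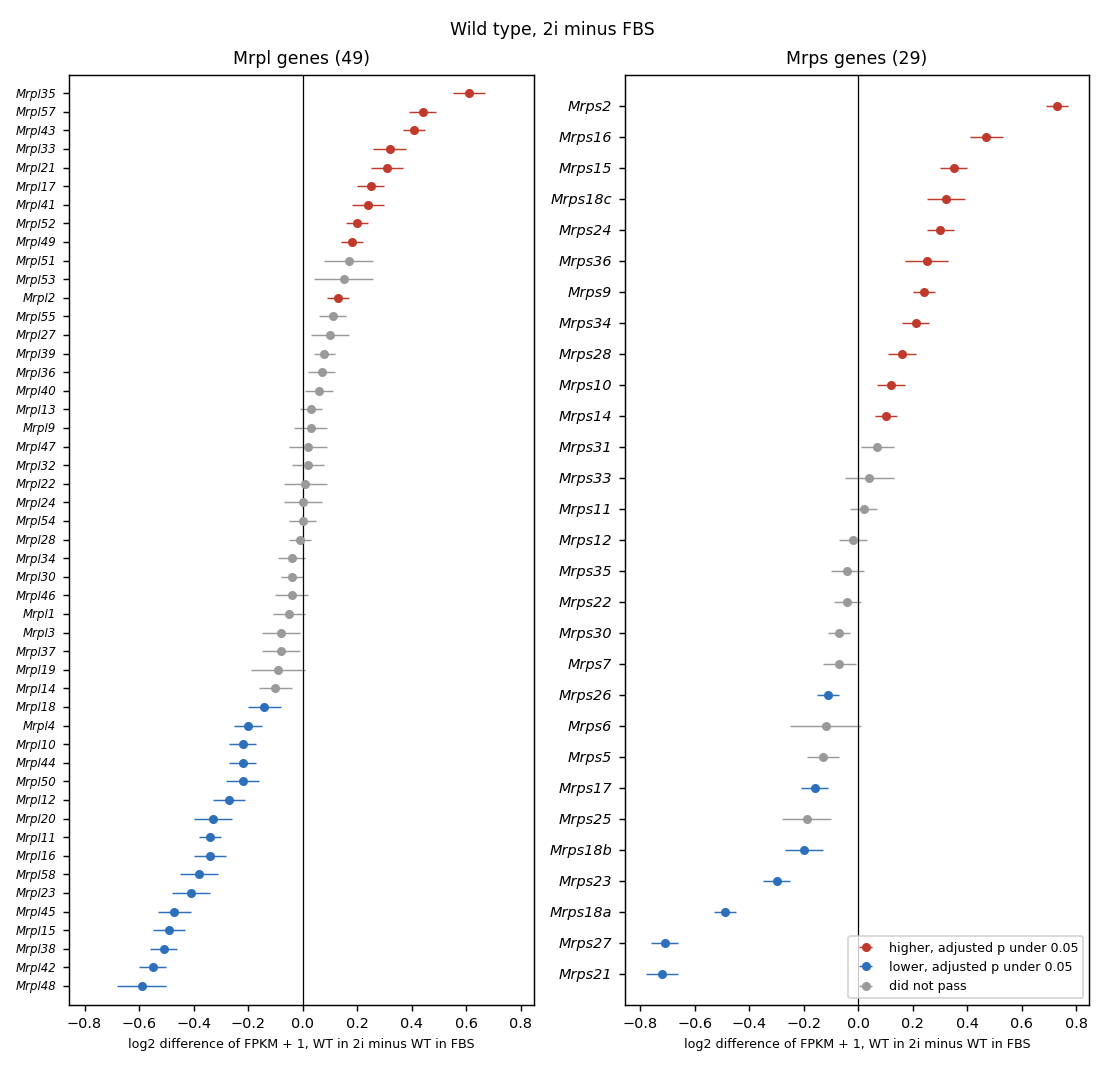
Log2 difference of FPKM + 1, WT in 2i minus WT in FBS (x axis), of each of the 49 Mrpl genes (left) and 29 Mrps genes (right), ordered by difference; points are limma estimates from 4 libraries a group, bars are standard errors, and colours mark genes called higher, lower or neither. Values run from -0.72 for Mrps21 to 0.73 for Mrps2, on both sides of 0 in each panel.

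Mrps2 was the member most raised in 2i, with the 53 to 54.7 FPKM given above against 31.7, 31.1, 31 and 34.9 FPKM in WT in FBS. The groups were far apart (log2 difference 0.73, SE 0.04, limma adjusted p = 1.21e-08), and the KO libraries in 2i lay between them. Mrpl35, at 14.1 to 15.3 FPKM in 2i, stood at 10.1, 8.74, 8.53 and 9.76 FPKM in FBS (log2 difference 0.61, SE 0.06, limma adjusted p = 1.59e-06). With the chromosome 6 offset subtracted it remained higher in 2i, by 0.48. In that fit Mrpl19 (-0.22), Mrps25 (-0.32) and Mrps35 (-0.16) newly passed as lower in 2i (limma adjusted p = 0.00906, 0.000189 and 0.00509). It called 26 members lower in 2i, beside 35.9% of all genes. Mrps16 was at 93.2 to 116 FPKM in 2i and 74.9, 74.2, 77.1 and 76.1 FPKM in FBS (log2 difference 0.47, SE 0.06, limma adjusted p = 7.94e-06). Mrpl57 was at 11.2 to 12.9 FPKM in 2i and 9.46, 8.68, 8.51 and 8.33 FPKM in FBS (log2 difference 0.44, SE 0.05, limma adjusted p = 9.51e-06). In none of Mrps2, Mrpl35, Mrps16 and Mrpl57 did the libraries in 2i and in FBS overlap. Mrpl34 and Mrpl36, which fell in KO, were near their 2i level in WT in FBS, at 70.1, 63.4, 64.5 and 65.3 FPKM and at 45.2, 41.4, 43.1 and 45.2 FPKM, and did not pass (log2 differences -0.04 and 0.07, limma adjusted p = 0.425 and 0.24).

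Among those lower in 2i, Mrps21, the homolog of bacterial S21, stood at 53.1, 61.7, 53 and 52.7 FPKM in WT in 2i, against 88.3, 94.9, 92.7 and 89.4 FPKM in WT in FBS. The libraries in 2i kept 60.3% of the FBS mean and did not overlap those in FBS (log2 difference -0.72, SE 0.06, limma adjusted p = 2.32e-07). Mrps27 held 22.9, 23.7, 20.2 and 22.9 FPKM in WT in 2i and 38.7, 37, 35.4 and 38.2 FPKM in WT in FBS (log2 difference -0.71, SE 0.05, limma adjusted p = 5.72e-08). Mrpl48, a mitochondria-specific gene with a pseudogene copy and a span that overlaps Rab6a, held 9.39, 7.12, 7.85 and 6.78 FPKM in WT in 2i and 12.2, 11.6, 13.2 and 11.7 FPKM in WT in FBS (log2 difference -0.59, SE 0.09, limma adjusted p = 3.86e-05). Most of the Mrpl48 sum came from its non-coding entry (NR_003559), at 7.12, 5.39, 6.81 and 4.56 FPKM in WT in 2i and 11.3, 11.6, 13.2 and 10.0 FPKM in WT in FBS. Its coding entry (NM_198831) was low and not lower in 2i, at 2.27, 1.72, 1.03 and 2.22 FPKM in WT in 2i, against 0.869 and 1.71 FPKM in WT in FBS replicates 1 and 4 and close to 0 in the other FBS libraries. The sum therefore does not describe the coding transcript. In the sums of both genes every 2i library was below every FBS library. Mrpl42 held 73.6 to 83.4 FPKM in WT in 2i and 111, 119, 114 and 121 FPKM in WT in FBS (log2 difference -0.55, SE 0.05, limma adjusted p = 1.02e-06). Of the genes that rose in KO, Mrpl38, Mrpl15, Mrpl16, Mrpl45 and Mrps27 were lower in 2i than in FBS, by log2 differences of -0.51, -0.49, -0.34, -0.47 and -0.71. Mrpl58, a peptidyl-tRNA hydrolase that frees stalled mitochondrial ribosomes, averaged 28.6 FPKM in WT in 2i and 37.5 FPKM in WT in FBS (log2 difference -0.38, limma adjusted p = 0.000365).

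The 3 Mrps18 paralogs, which occupy different places in the ribosome, did not move alike between the media. Mrps18c, a small subunit protein with a bacterial homolog, was higher in 2i, at 48.2, 48.9, 49.2 and 49 FPKM, against 37.5, 42.9, 36 and 39.7 FPKM in FBS (log2 difference 0.32, SE 0.07, limma adjusted p = 0.000715). Mrps18a, whose protein is in the large subunit, was lower in 2i, at 31.9, 29.2, 29.7 and 32.4 FPKM, against 41.9, 43.3, 43 and 45.8 FPKM in FBS (log2 difference -0.49, SE 0.04, limma adjusted p = 4.94e-07). Mrps18b, at 53.6, 49, 63.5 and 55.7 FPKM in 2i and 62.8, 59.5, 61.7 and 69.7 FPKM in FBS, was lower with overlapping groups (log2 difference -0.20, SE 0.07, limma adjusted p = 0.0236), a call lost in 5 of the 26 alternative settings. In KO against WT in 2i the paralogs had log2 changes of -0.12, 0.02 and 0.11 for Mrps18c, Mrps18a and Mrps18b, and none passed (limma adjusted p = 0.167, 0.744 and 0.218).

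Other abundant members that did not pass between the media were Mrpl24, whose span overlaps Rrnad1, at 87.6, 85.3, 78.3 and 77.8 FPKM in 2i and 82.6, 75, 93.7 and 77.7 FPKM in FBS, and Mrps12, at 62.9, 67.1, 60.2 and 68.6 FPKM in 2i and 67.6, 66.4, 62.2 and 66.4 FPKM in FBS (log2 differences 0.00 and -0.02, limma adjusted p = 0.964 and 0.684). Their groups overlapped in full. Mrpl12 was lower in 2i, at 79.5 to 88.6 FPKM, against 109, 96.8, 94.1 and 111 FPKM in FBS (log2 difference -0.27, SE 0.06, limma adjusted p = 0.00087). Trophoblast markers summed to 28.9 to 35.6 FPKM in WT in 2i and 75 to 95.9 FPKM in WT in FBS. Most of this was Tfap2c, with means of 26.8 and 65 FPKM. Neural markers summed to 9.46 to 24.9 and 34.4 to 58.1 FPKM in the same groups, most of it Tubb3 (means 12.6 and 36.4 FPKM). Primitive endoderm markers summed to 8.9 to 13.9 and 14.4 to 21.2 FPKM. Their part in the result was not tested. Fibroblast markers also differed between the media, 12 of 20 higher and 3 lower in 2i. With their level as a covariate 12 members were higher and 14 lower in 2i, against 21 and 23 without it. Among the members named with values, Mrpl12, Mrpl41, Mrps18b and Mrps36 no longer passed. In that fit 25.6% of all genes were higher and 27.3% lower in 2i. The marker level did not overlap between these groups either, so it cannot be separated from the medium. Without WT in 2i replicate 3, 24 members were higher and 22 lower in 2i, beside 37.8% and 34.9% of all genes.

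Ordered by group means, 22 members were highest in WT in FBS and lowest in KO, and 19 were highest in WT in 2i and lowest in WT in FBS. A further 18 were highest in WT in 2i and lowest in KO, and 16 were highest in WT in FBS and lowest in WT in 2i. In the remaining 3 members KO had the highest mean. These orders rest on means alone: 50 members did not pass between KO and WT in 2i and 34 did not pass between the media.

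Other genes of mitochondrial translation and transcription, in 5 lists, had 15% to 26.7% of their tested genes called in KO, beside the 45.3% of all genes. The lists are short and were not tested. Of 5 further mitoribosome proteins, Chchd1 fell, with 64.6 ± 3.34 FPKM in KO in 2i and 81.2 ± 5.74 FPKM in WT in 2i (SD, n = 4 each; log2 change -0.32, limma adjusted p = 0.000663), and the other 4, among them Dap3 and Ptcd3, did not pass. Of 21 genes for assembly and rRNA modification, 3 fell and 2 rose. The 3 were Malsu1, which in human cells keeps the subunits apart during assembly (-0.38), Mpv17l2 (-0.36) and the rRNA methyltransferase Nsun4 (-0.31), with limma adjusted p of 0.00236, 0.00332 and 0.000726; Malsu1 also lies on chromosome 6. Of 15 translation factors, 2 rose and 2 fell: the ribosome recycling factor Mrrf averaged 4.48 FPKM in KO in 2i and 3.5 FPKM in WT in 2i (0.29, limma adjusted p = 0.00728), and the elongation factor Gfm1 30.3 FPKM in KO in 2i and 33.5 FPKM in WT in 2i (-0.14, limma adjusted p = 0.00393). Of 20 mitochondrial aminoacyl-tRNA synthetases 2 rose, among them Tars2 (0.26, limma adjusted p = 0.000609), and 1 fell, Mars2 (-0.30, limma adjusted p = 0.00325). Of 12 tested genes for mitochondrial transcription and its control 2 rose and 1 fell.

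Between the media, where 37.1% of all genes were higher and 35.3% lower in 2i, the shares differed from list to list and were not tested. Translation factors had 1 higher and 9 lower of 15 (median log2 difference -0.26), with Mrrf at 3.5 ± 0.46 FPKM in WT in 2i and 7.84 ± 0.269 FPKM in WT in FBS (-0.98, limma adjusted p = 1.25e-07), the mRNA stability factor Lrpprc at 22.8 ± 2.53 and 40.2 ± 2.77 FPKM in the same groups (-0.79, limma adjusted p = 5.78e-07; SD, n = 4 each) and the elongation factor Tufm at -0.40. Aminoacyl-tRNA synthetases had 4 higher and 11 lower of 20 (median -0.17), and mitochondrial transcription 2 higher and 7 lower of 12 (median -0.24), with Tfam, which packages mitochondrial DNA, at 16 ± 0.53 FPKM in WT in 2i and 25.4 ± 1.57 FPKM in WT in FBS (-0.63, limma adjusted p = 1.03e-07). Mars2 and Mpv17l2 went the other way, at 1.02 and 1.26 (limma adjusted p = 3.66e-08 and 3.09e-08). Assembly and rRNA modification had 5 higher and 7 lower of 21 (33.3% lower), and the further mitoribosome proteins 2 higher and 3 lower of 5.

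The mitochondrial ribosome makes a part of the respiratory chain, and the nuclear genome encodes the other subunits. Among all genes tested 21.4% fell and 24% rose in KO, and 37.1% were higher and 35.3% lower in 2i than in FBS. Of 73 tested nuclear-encoded subunits 49 (67.1%) fell and 1 (1.37%) rose in KO (median log2 change -0.20). Between the media 53 (72.6%) were higher and 6 (8.22%) lower in 2i than in FBS (median 0.28). For the mitochondrial ribosomal protein genes the medians were -0.08 and -0.01. Cytosolic ribosomal protein genes, 81 in all, had 26 (32.1%) lower and 9 (11.1%) higher in KO (median -0.06) and 34 (42%) higher and 11 (13.6%) lower in 2i (median 0.09). Many of them have processed pseudogenes that could share reads. The differences between these lists are descriptions and were not tested.

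**Figure D5:**
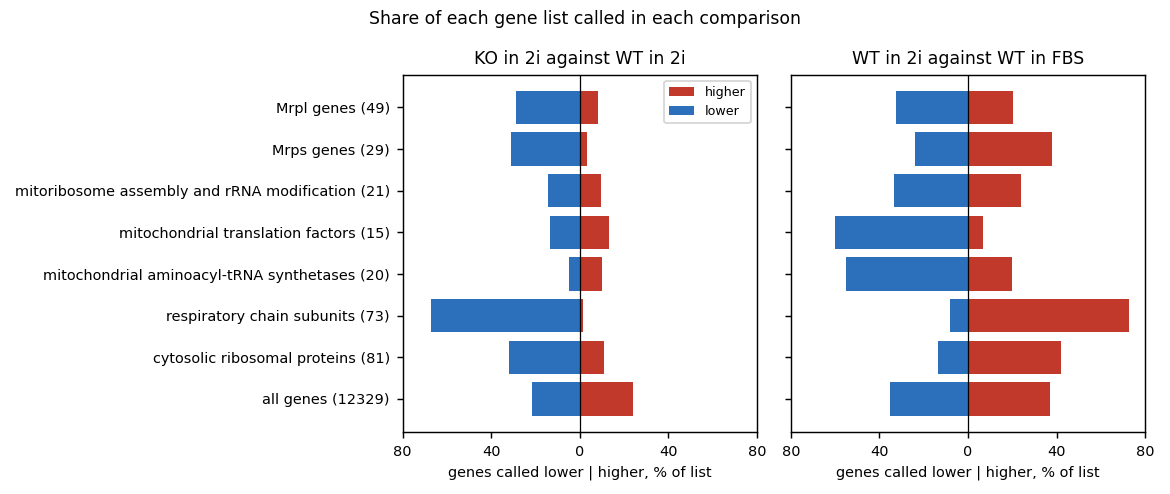
Share of each gene list called lower (left of 0) and higher (right of 0) at a limma adjusted p under 0.05, in percent of the genes tested (x axis), for KO against WT in 2i (left) and WT in 2i against WT in FBS (right); the number of genes tested is in parentheses. In KO 28.6% of Mrpl and 31% of Mrps genes were lower, against 67.1% of respiratory chain subunits and 21.4% of all genes.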

How the data were processed

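RNA-seq libraries were made from 12 ESC samples with Trizol extraction and a TruSeq kit, per the labels' protocols. The tools named are CASAVA 1.8.2 and Cufflinks, without a version, and the build is mm9, per the submitters' processing notes; an aligner is not given in the sources used here. FPKM were deposited by the authors per RefSeq transcript, with lower and upper bounds and a status, per the file headers. A member's value lay above its own upper bound in 50 to 59 of 87 member entries per library, so the bounds were not used. Low values did not fall on steps that would give whole reads (11.2% to 13.6% of low entries lay at the commonest ratio between libraries), so absolute depth and counting error are unknown and no count test was run.

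Symbols came from RefSeq (GRCm38.p6) and GENCODE tables and matched 98.8% of 30761 entries; entries of a symbol were summed. Of the 78 members 7 had several entries, and copies listed by RefSeq as pseudogenes (of Mrpl23, Mrpl27, Mrpl48 and Mrps36) could share reads. The 7 genes with a failed estimate were left out; none is a member. Coordinates of genes are on mm9.

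A gene was tested if 4 or more libraries held 1 FPKM or more of it, on log2(FPKM + 1), 12329 in all; fold changes on this scale understate the change of low genes. limma 3.58.1 (R 4.3.3) was fitted with 1 mean per group over all 12 libraries, with an intensity trend, two-sided, and Benjamini-Hochberg adjustment over all genes tested; genes with an adjusted p under 0.05 were called. The model was also run on simulated data in which few genes were changed, most of them by more than any member here. That run therefore does not show how reliably the small changes of members are called. Python 3.11.15, numpy 2.4.6, pandas 2.3.3 and matplotlib 3.10.9 were used. Whether a group's 4 libraries are separate cultures is not in the labels; the p-values therefore reflect the spread among these libraries alone, and that spread may be technical. No pair of libraries held identical values.

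Members, lists, markers and tests were chosen with earlier results of these data known, so lists are described by counts and medians without a test. Members named with values were the 4 largest rises and 4 largest falls per comparison among called members with no overlap between groups, the highest and lowest of each subunit, the highest that did not pass, and Mrpl12, Mrps12, the Mrps18 paralogs, Mrps30 and Mrps36. Mrpl45 and Mrpl58 were described after their values were seen. In other lists up to 3 genes with the smallest adjusted p per comparison were eligible. Alternatives were other pseudocounts (0.1 and 0.01), filters (none or 5 FPKM), scalings (median-ratio, quantile, TPM), libraries, eBayes settings, entries per symbol, the replicate number as a block, a fibroblast marker covariate, the chromosome 6 offset removed and leaving out each library.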

Additional observations from a re-analysis of the deposited data

Results flagged for a closer look

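Among the members named with values, 2 libraries stood far from the other 3 of their group. Mrps21 stood at 61.7 FPKM in WT in 2i replicate 2, above the 52.7 to 53.1 FPKM of the other WT libraries in 2i. Mrps30 stood at 44.2 FPKM in WT in 2i replicate 4, below the 46.1 FPKM of each of the others. Over the 78 members and 3 groups, 10 of 234 sets of 4 values (4.27%) held such a library; chance gives about 1 in 20.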

How the results depend on the processing

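With the fibroblast marker level as a covariate, 1 member was higher and 7 were lower in KO than in WT in 2i. Between the media 12 were higher and 14 lower in WT in 2i. Over all genes 6.07% were higher and 8.58% lower in KO, and 25.6% higher and 27.3% lower in WT in 2i than in WT in FBS. The median log2 change of Mrpl genes was -0.05 in KO and 0.00 between the media. Standard errors are larger in that fit, and marker level and group cannot be separated there. Leaving out each library in turn gave 4 to 7 members higher and 18 to 25 lower in KO. Between the media it gave 19 to 24 higher and 20 to 25 lower. Over all genes those runs called 20.4% to 24.9% higher and 17.7% to 23.2% lower in KO. Between the media they called 35.5% to 37.8% of all genes higher and 33.3% to 35.2% lower. The medians in those runs were -0.09 to -0.05 (Mrpl) and -0.10 to -0.08 (Mrps) in KO, and -0.04 to -0.01 (Mrpl) and -0.04 to 0.01 (Mrps) between the media, so the last has no settled sign. Quantile and TPM scaling gave 18 of the 78 members lower in KO each, against 22% and 18.8% of all genes. In the main fit 29.5% of members and 21.4% of all genes were lower. Under each of these scalings the medians in KO were -0.05 (Mrpl) and -0.06 (Mrps).

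Of 1248 values for single members under 26 alternatives, 1204 kept their direction and side of the threshold, 16 no longer passed, 11 newly passed and 17 changed sign, none of the last passing the test. These were, in KO, Mrpl12 with the covariate (0.03), Mrpl42 with median-ratio scaling (-0.01) and leaving out single libraries (-0.03 to 0.04), Mrpl48 without WT in 2i replicate 4 (-0.00; up to 0.14 in the other runs) and Mrps18a without WT in 2i replicate 2 (-0.00; up to 0.04). Between the media they were Mrpl24 with median-ratio (-0.01) and quantile (-0.00) scaling and leaving out single libraries (-0.04 to 0.07), Mrpl36 with the covariate (-0.01) and Mrps12 without WT in 2i replicate 3 (0.01; down to -0.05). The cause was not tested.

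Replicate numbers were not used as pairs, because the labels tie them to nothing shared and not every same-numbered correlation of deviations across genes exceeded 0.1. Between KO and WT in 2i these were 0.055, 0.258, 0.216 and 0.194 for replicates 1 to 4, and 3 of 4 libraries correlated best with their own number, a hint from the data and not from the design; between the media they were 0.027 to 0.186. The mean log2 level of the fibroblast markers also rose with replicate number in KO in 2i (3.81, 4.02, 4.16 and 4.47). The same held in WT in 2i (3.13, 3.26, 3.5 and 3.64) but not in WT in FBS, and the reason was not tested. With the replicate block 5 members were higher and 24 lower in KO, and 20 higher and 23 lower between the media. Over all genes 23.7% were higher and 21.4% lower in KO, and 37.2% higher and 35% lower between the media. Low FPKM limit the precision of Mrpl41, Mrpl48, Mrps25 and Mrps36, whose absolute read depth is unknown.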
